A study of Rattus norvegicus with 6 samples.

Results

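DNA repair genes that act outside the removal of oxidised bases were described in the renal cortex of rats given potassium bromate, an oxidant that damages the kidney. The set held 48 genes, chosen by name as members of the break, crosslink, mismatch, nucleotide excision, direct reversal, bypass and repair synthesis pathways. Of these, 38 had a probe named through its transcript accession, and 36 of the 38 passed the detection filter (signal well above background on 3 or more of 6 arrays), out of 29338 genes tested in all. Brca1 and Xrcc2 were below that limit on every array, and Atr, Rad52, Xrcc3, Prkdc, Msh6, Ercc4, Ercc5, Fanca, Rev1 and Rpa1 were not analysed here because no probe carried their name.

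The animals were male Sprague-Dawley rats, bought at 5 weeks of age, fed a basal diet and held for 4 weeks on water (3 rats) or on potassium bromate at 100 mg/kg/day (3 rats). Total RNA of the cortex of each rat was hybridised to 1 single-colour array. Whole cortex mixes tubule, vessel, interstitial and immune cells, so a change may come from the make-up of the tissue or from the RNA of each cell, and fewer cells of a type cannot be told apart from less RNA per cell. All 10 listed proximal tubule markers were measured, with the phosphate carrier gene Slc34a1 at a mean log2 level of 8.22 on the water arrays. Of these 4 fell (Anpep by 0.99, Slc5a2 by 0.92 and Lrp2 by 0.90 on the log2 scale) and 0 rose, with 2 that fell without water replicate 3 or bromate replicate 2. Slc5a12 was the 1 marker of the 10 that was higher, by 0.35 with no overlap between groups. It did not pass (adjusted p = 0.127 by limma). Summed linear levels of the 10 were 1463 to 1566 on water and 999.1 to 1160.2 on bromate. All 8 straight tubule markers were lower under bromate (median difference -1.65), with 0 called by limma and 4 at an unadjusted p under 0.05. The water arrays themselves spread widely in these markers, with means of 1.17, -0.10 and -1.07 relative to the water mean, so that water replicate 1 stood highest. Of 6 fibroblast markers 0 were called by limma, with 1 at an unadjusted p under 0.05. Of 6 endothelial markers 1 fell (Emcn by 0.63), and 0 by limma without water replicate 2 or 3 or bromate replicate 2 or 3, while 2 fell without water replicate 1. Each array read 61537 probes, of which 57.9% to 63.1% passed the scanner's background test. One slide held water replicate 1 by itself and another the remaining 5 arrays. Precision is limited by how few arrays there were. A level is a log2 signal after subtraction of its array's 75th percentile. A difference is the bromate mean less the water mean on that scale, given ± SE (3 rats against 3).

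Cells meet DNA damage with several pathways. Sensor kinases such as ATM signal to checkpoint kinases and mark chromatin by phosphorylating histone H2AX. Broken DNA is rejoined directly by end joining or copied from a sister strand by homologous recombination, bulky lesions are cut out by nucleotide excision repair, and mismatch repair follows the replication fork. Bypass polymerases copy damaged templates, and PCNA, FEN1 and ligase I complete new strands in both replication and repair. Several of these genes are transcribed mostly in dividing cells through E2F factors, and some others are known targets of p53.

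Among the 36 measured genes, 6 rose, 1 fell and 29 did not pass by limma with Benjamini-Hochberg adjustment over all genes and a threshold of 0.05. Rad18, Exo1, H2ax, Mre11, Fen1 and Pcna rose, and Rad51d fell. Of all genes tested 6.59% rose and 7.34% fell (13.9% together), against 16.7% and 2.78% of the measured repair genes. Of the 29338 counted as genes, 11572 were named and the rest were unnamed probes, each standing for itself. Shares over all genes therefore mix both kinds, while the repair genes are all named, and shares over named genes alone were not computed. The median difference was 0.10, beside -0.02 over all genes, and 22 of the 36 were higher. Of the 36, 2 genes moved at least 2-fold (5.56%, against 6.44% of all genes), and 19 had a 95% interval that lay wholly within 1.5-fold in either direction (52.8%, against 48.8% of all genes). All 3 bromate values lay above all 3 water values in 15 repair genes (41.7%, against 19.5% of all genes) and below them in 4 (11.1%, against 21.4%), together 19 of 36 beside 40.9% of all genes. Of these, 5 were also at least 1.5-fold higher (6.21% of all genes) and 0 at least 1.5-fold lower (7.35% of all genes).

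Each count rested on few arrays. Without water replicate 1, 1 repair gene rose and 1 fell. Without water replicate 3, 0 rose and 1 fell, and 0 rose and 0 fell by limma without water replicate 2, bromate replicate 2 or bromate replicate 3. Repair genes with an unadjusted p under 0.05 numbered 15 with all arrays (beside 9591 of all 29338 genes), and 13, 12 and 12 without water replicates 1, 2 and 3 and 14 and 13 without bromate replicates 2 and 3. Without bromate replicate 1, 6 rose and 0 fell, of which 3 were among the 7 called with all arrays. The share of all genes called fell in the same way, to between 3.77% and 11.7% on leaving out 1 array. With slide as a block, which takes water replicate 1 out of the comparison, 1 rose and 1 fell.

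**Figure D1:**
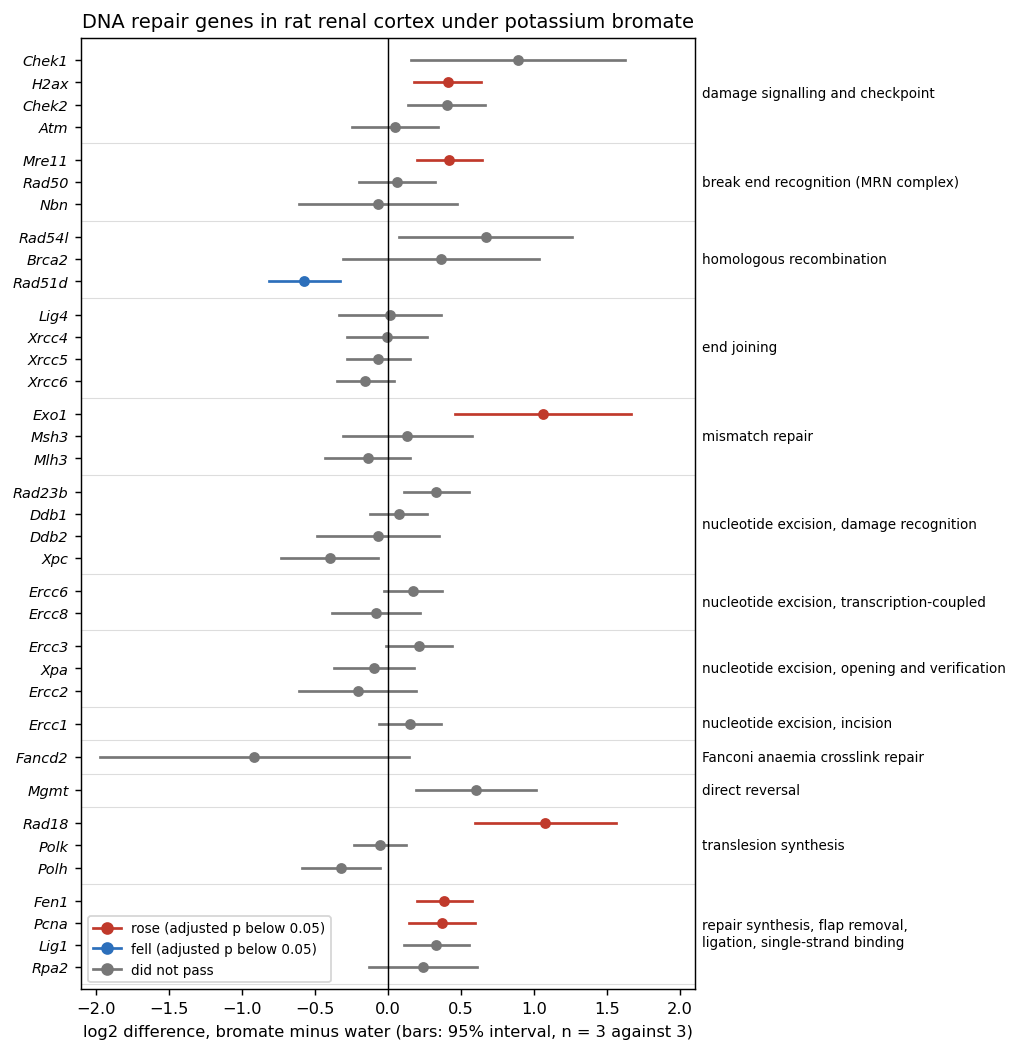
Log2 difference of each measured repair gene, bromate minus water, with its 95% interval (n = 3 against 3), grouped by pathway. Rad18 and Exo1 have the largest rises (1.08 and 1.06), Rad51d is the gene that fell, and the end joining genes lie within 0.16 of 0.

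Upstream sequences are shown for 5 of the called genes: Rad18 and Exo1, which rose most, H2ax and Fen1, which also rose, and Rad51d, which fell. They are the 250 bases before the annotated transcript start, from RefSeq on build GRCr8, 5′ to 3′ on the strand of the gene. Capitals mark 2 motifs, searched on both strands: the E2F core (TTCCCGC with its variants TTCGCGC as well as TTGCCGC and the form TTGGCGC) and the CCAAT box, the second chosen after the sequences were seen.
Rad18, chr4:147376870-147377119, minus strand: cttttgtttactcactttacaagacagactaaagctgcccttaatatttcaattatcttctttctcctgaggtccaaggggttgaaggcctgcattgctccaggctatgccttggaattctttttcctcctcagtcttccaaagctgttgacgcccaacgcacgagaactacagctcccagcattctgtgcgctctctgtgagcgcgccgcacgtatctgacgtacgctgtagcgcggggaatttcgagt
Exo1, chr13:90341768-90342017, plus strand: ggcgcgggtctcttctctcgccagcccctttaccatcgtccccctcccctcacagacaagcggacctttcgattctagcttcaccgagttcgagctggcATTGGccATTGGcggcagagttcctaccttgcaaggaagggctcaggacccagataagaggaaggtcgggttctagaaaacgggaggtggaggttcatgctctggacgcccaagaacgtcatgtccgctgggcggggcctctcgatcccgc
H2ax, chr8:53568468-53568717, plus strand: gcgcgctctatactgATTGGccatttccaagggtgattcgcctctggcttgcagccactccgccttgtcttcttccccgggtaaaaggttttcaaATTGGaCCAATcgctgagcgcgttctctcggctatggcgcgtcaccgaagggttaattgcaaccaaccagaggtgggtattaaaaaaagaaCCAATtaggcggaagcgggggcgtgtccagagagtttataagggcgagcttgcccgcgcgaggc
Fen1, chr1:216274397-216274646, minus strand: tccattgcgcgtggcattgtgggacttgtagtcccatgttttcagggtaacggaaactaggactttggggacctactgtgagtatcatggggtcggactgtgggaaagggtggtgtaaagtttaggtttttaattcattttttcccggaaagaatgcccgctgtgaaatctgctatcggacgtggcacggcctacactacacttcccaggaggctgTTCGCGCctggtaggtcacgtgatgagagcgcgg
Rad51d, chr10:68321903-68322152, minus strand: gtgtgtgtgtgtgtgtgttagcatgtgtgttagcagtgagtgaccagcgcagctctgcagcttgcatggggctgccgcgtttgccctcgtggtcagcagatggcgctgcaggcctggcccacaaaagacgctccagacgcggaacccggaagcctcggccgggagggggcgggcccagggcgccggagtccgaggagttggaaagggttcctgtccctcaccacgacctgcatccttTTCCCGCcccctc
The H2ax window held 4 CCAAT boxes, the Exo1 window 2, and the Fen1 and Rad51d windows 1 E2F core each, with no overlap between the motifs. No match to either motif lay in the Rad18 window. The windows of Mre11 and Pcna, which also rose, are not shown. The Mre11 window held 0 matches to either motif, and the Pcna window 0 E2F cores and 1 CCAAT box. Of the 36 measured genes 32 had a window, of which 10 (31.3%) held an E2F core and 11 (34.4%) a CCAAT box, against 7.59% and 34.02% of 33469 windows in the table. Among named genes tested, 13.1% of windows held an E2F core. The E2F core was present in 1 of the 6 genes that rose, and the CCAAT box in 3 of the 6. The full p53 motif, with up to 13 bases between its parts, was in 0 of the 32 windows and in 0.0388% of all. Matches that rare are not to be looked for in 32 windows, so the 0 tells nothing about p53. A match is a run of letters and not a measured binding site.

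Of 4 measured damage signalling genes 1 rose: H2ax, which encodes the histone variant marked at breaks. Its levels were -2.08, -1.90 and -2.04 on water replicates 1 to 3 and -1.68, -1.50 and -1.61 on bromate replicates 1 to 3. The groups did not overlap, and the rise was 1.33-fold (0.41 ± 0.09, adjusted p = 0.0402 by limma). It did not pass on leaving out any 1 array (adjusted p = 0.0625 to 0.122).

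Chek1, which encodes a checkpoint kinase of replication stress, had water levels of -4.43, -4.56 and -4.46 and bromate levels of -4.22, -3.001 and -3.55. Bromate replicate 1 lay just above the water arrays and the other bromate arrays well above them. The difference of 0.89 ± 0.30 did not pass (adjusted p = 0.102 by limma). Without bromate replicate 1, the lowest bromate array, it was 1.205 and passed (adjusted p = 0.0303), as leaving out the lowest value raises the difference. It did not pass without any other array (adjusted p = 0.161 to 0.225). On the water arrays Chek1 passed the background test in 2 of 3.

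Chek2, the checkpoint kinase downstream of ATM, had a difference of 0.40 ± 0.11 that narrowly missed (adjusted p = 0.0597), with no overlap between groups. Its second probe did pass (0.66 ± 0.10, adjusted p = 0.0157 by limma over all probes), as did the mean of both probes (0.53, adjusted p = 0.0207). That mean was 1 of 2 settings, out of 12 others, in which Chek2 passed. It did not pass on leaving out any 1 array (adjusted p = 0.0726 to 0.157). Atm itself, the sensor kinase gene, gave 0.05 ± 0.12 (95% interval -0.25 to 0.34). A dimmer Atm probe gave 0.58 ± 0.20, which did not pass (adjusted p = 0.104 over all probes).

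The MRE11-RAD50-NBN complex binds broken DNA ends and activates ATM, and 1 of its 3 genes rose. Mre11, the nuclease subunit, had water levels of -3.27, -3.07 and -3.11 and bromate levels of -2.69, -2.71 and -2.79. All bromate arrays were above all water arrays, by 1.34-fold (0.42 ± 0.09, adjusted p = 0.0347). With any single array removed, Mre11 missed the threshold (adjusted p = 0.0552 to 0.108). It also missed under normexp background correction (0.27, adjusted p = 0.106) and with an intensity trend in the variance (adjusted p = 0.0652). Rad50, the tethering subunit, differed by 0.06 ± 0.11 (95% interval -0.20 to 0.32). Nbn, the scaffold subunit, differed by -0.07 ± 0.22, with 1 bromate array low: its bromate levels were 2.24, 1.47 and 2.198, against 1.95 to 2.14 on water.

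Of 3 measured homologous recombination genes 1 fell and the others did not pass. Rad51d, which encodes a protein of homologous recombination, fell and was the single repair gene of the set to do so. Its water levels were -1.18, -1.31 and -1.44, and its bromate levels -1.88, -1.96 and -1.81. The groups did not overlap, and the fall was 1.49-fold (-0.57 ± 0.10, adjusted p = 0.0211). It passed without water replicate 1 or 3 (adjusted p = 0.0387 and 0.0432), and not without any other array (0.0538 to 0.0766). The second Rad51d probe had the same sign but did not pass (-0.38 ± 0.17, adjusted p = 0.184 over all probes), nor did the mean of both (-0.47, adjusted p = 0.0613).

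Rad54l, which encodes a motor protein that aids strand exchange, had water levels of -2.83, -2.97 and -2.89 and bromate levels of -2.74, -1.78 and -2.15. As with Chek1, bromate replicates 2 and 3 were high and bromate replicate 1 lay close to the water arrays. The difference of 0.67 ± 0.24 did not pass (adjusted p = 0.117 by limma). Without bromate replicate 1, again the lowest bromate array, it was 0.93 and passed (adjusted p = 0.0295). It did not pass without any other array (adjusted p = 0.172 to 0.251). Brca2, which acts in recombination at breaks, was singled out after its values were seen. Its levels were -2.05, -1.92 and -1.998 on water and -2.26, -1.30 and -1.31 on bromate, so bromate replicate 1 was the lowest of the 6 arrays. With all arrays the Brca2 difference was 0.36 ± 0.27 (adjusted p = 0.401 by limma), and without bromate replicate 1 it was 0.68 and passed (adjusted p = 0.0214). Brca2 did not pass without any other array (adjusted p = 0.495 to 0.702).

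**Figure D2:**
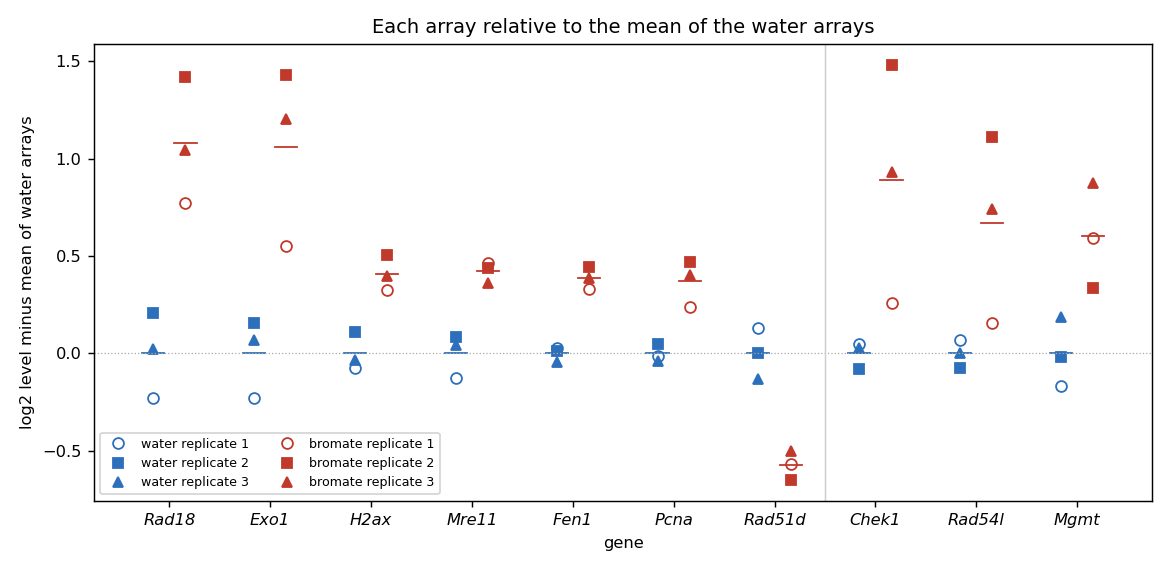
Log2 level on each array minus the mean of the water arrays, for the 7 repair genes that were called (left of the line) and 3 that did not pass but differed at least 1.5-fold with no overlap (right). Short lines are group means; bromate replicate 1 (open red circles) is the lowest bromate array for Rad18, Exo1, H2ax, Fen1, Pcna, Chek1 and Rad54l.

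None of the end joining genes passed, and their intervals were narrow. The DNA end-binding Ku genes Xrcc5 and Xrcc6 and the ligation genes Xrcc4 and Lig4 differed by -0.16 to 0.02, and all 4 had 95% intervals within 1.5-fold. By limma 0 of the 4 were called, and 0 passed at an unadjusted p under 0.05. Xrcc6 differed most, with water levels of 2.48, 2.52 and 2.56 and bromate levels of 2.40, 2.41 and 2.28. Its groups did not overlap, yet the difference of -0.16 ± 0.08 did not pass (adjusted p = 0.232). Its 95% interval ran from -0.35 to 0.04, so a fall beyond that lower bound was outside the interval. A second Xrcc6 probe gave -0.02 ± 0.09.

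In mismatch repair, Exo1 rose and the recognition genes did not pass. Exo1, which encodes the exonuclease that removes the strand holding the mismatch and also trims broken ends, had water levels of -3.95, -3.57 and -3.65. Its bromate levels were -3.17, -2.297 and -2.52, so bromate replicates 2 and 3 stood highest and replicate 1 was still above all water arrays. The rise was 2.08-fold (1.06 ± 0.25, adjusted p = 0.0419 by limma). Over 12 other settings the Exo1 difference ran from 0.63 to 1.07, so its size depended on processing. Exo1 passed without bromate replicate 1 (1.31, adjusted p = 0.0186) and not without any other array (adjusted p = 0.0906 to 0.112). The other Exo1 probe was too dim to test. Msh3, a mismatch-binding gene, differed by 0.13 ± 0.18 and Mlh3, of a MutL complex, by -0.14 ± 0.12.

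Nucleotide excision repair was the largest group, and 0 of its 10 measured genes were called by limma, with 2 at an unadjusted p under 0.05. Of the 10, 8 had a 95% interval within 1.5-fold, and differences ran from -0.40 to 0.33, with 5 higher and 5 lower. Xpc, which finds distorted DNA across the genome, had water levels of 0.69, 0.59 and 0.68 and bromate levels of -0.01, 0.32 and 0.46. All bromate arrays were below all water arrays, but the difference of -0.40 ± 0.14 did not pass (adjusted p = 0.105). A second Xpc probe gave -0.45 ± 0.16 (adjusted p = 0.119 over all probes).

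Rad23b, whose product partners and stabilises XPC, went the other way. Its groups did not overlap and the difference of 0.33 ± 0.09 narrowly missed (adjusted p = 0.0623). Its second probe passed (0.56 ± 0.11, adjusted p = 0.0239 by limma over all probes), and the brightest probe passed under quantile normalization (0.34, adjusted p = 0.0359). Of 12 other settings Rad23b passed in 5 and not in the other 7. It did not pass on leaving out any 1 array (adjusted p = 0.0612 to 0.172). The ultraviolet-damage sensor genes Ddb1 and Ddb2 differed by 0.07 ± 0.08 and -0.07 ± 0.17.

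Genes of the later steps did not pass. Ercc6, which starts repair at stalled RNA polymerase, had water levels of -0.50, -0.35 and -0.41 and bromate levels of -0.26, -0.28 and -0.19 (0.17 ± 0.08, adjusted p = 0.202). Its other probes disagreed in sign, at 0.31 ± 0.11 and -0.16 ± 0.09. Ercc3, a helicase gene of the repair and transcription factor TFIIH, had water levels of 3.36, 3.24 and 3.40 and bromate levels of 3.65, 3.46 and 3.54. The Ercc3 difference was 0.21 ± 0.09 (adjusted p = 0.169). Ercc1, of the nuclease that cuts 5′ of the lesion, had water levels of 1.47, 1.32 and 1.28 and bromate levels of 1.49, 1.48 and 1.56 (0.15 ± 0.09, adjusted p = 0.277). For Ercc6, Ercc3 and Ercc1 the groups did not overlap, in each case with bromate above water. Ercc8, the partner of ERCC6 in stalled-polymerase repair, the TFIIH helicase gene Ercc2 and the verification gene Xpa had overlapping groups and differences of -0.21 to -0.08.

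Among crosslink, direct reversal and bypass genes the clearest change was in Rad18. RAD18 is the ubiquitin ligase that marks PCNA at stalled forks and so admits bypass polymerases. Rad18 levels were -3.62, -3.19 and -3.37 on water and -2.62, -1.98 and -2.35 on bromate. The lowest bromate array was above the highest water array, and the rise was 2.11-fold (1.08 ± 0.20, adjusted p = 0.0233 by limma). Its size depended on processing: over 12 other settings the Rad18 difference ran from 0.57 to 1.09. The rise held without bromate replicate 1 (1.23, adjusted p = 0.0294), and adjusted p ran from 0.0506 to 0.0706 on leaving out any other array.

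The bypass polymerase genes did not pass. Polh, which encodes polymerase eta, was lower with no overlap (-0.32 ± 0.11) but did not pass (adjusted p = 0.104). Polk, which encodes polymerase kappa, differed by -0.05 ± 0.07 (95% interval -0.23 to 0.13). Mgmt, whose product removes alkyl groups from guanine, had water levels of 1.92, 2.07 and 2.27 and bromate levels of 2.68, 2.42 and 2.96. The groups did not overlap, and the difference of 0.60 ± 0.17 (1.52-fold) did not pass (adjusted p = 0.0652). Of 12 other settings Mgmt passed in 2, with an intensity trend in the variance (adjusted p = 0.0441) and under normexp background correction, and not in the other 10. Fancd2, the Fanconi anaemia gene whose product is ubiquitinated at crosslinks, spread widely, with water levels of -3.80, -3.58 and -4.21 and bromate levels of -5.72, -4.52 and -4.09. Its groups overlapped (-0.91 ± 0.43, adjusted p = 0.204), and it was above background on 2 of the 3 bromate arrays.

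Of 4 measured genes of repair synthesis and ligation 2 rose. Fen1, the flap endonuclease gene, had water levels of 1.97, 1.96 and 1.898 and bromate levels of 2.27, 2.39 and 2.33. The rise was 1.31-fold (0.39 ± 0.08, adjusted p = 0.029) with no overlap. It held without water replicate 1 (adjusted p = 0.0468) and not without any other array (0.0514 to 0.0982). A dim second Fen1 probe was high on bromate replicate 3 alone (-2.15, against -4.71 to -4.297 on the other 5 arrays), and with the mean of both probes the gene did not pass (0.60, adjusted p = 0.257).

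Pcna, the sliding clamp gene, had water levels of 1.76, 1.82 and 1.73 and bromate levels of 2.01, 2.24 and 2.17. It rose 1.29-fold (0.37 ± 0.09, adjusted p = 0.0493), close to the threshold. It passed without bromate replicate 1 (adjusted p = 0.049) and not without any other array (0.0865 to 0.14). Lig1, the ligase of replication and long repair patches, had a difference of similar size on both probes (0.33 ± 0.09 and 0.33 ± 0.08) that did not pass (adjusted p = 0.0638, and 0.0538 over all probes). Rpa2, of the single-strand binding complex, gave 0.24 ± 0.15 with overlap.

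**Figure D3:**
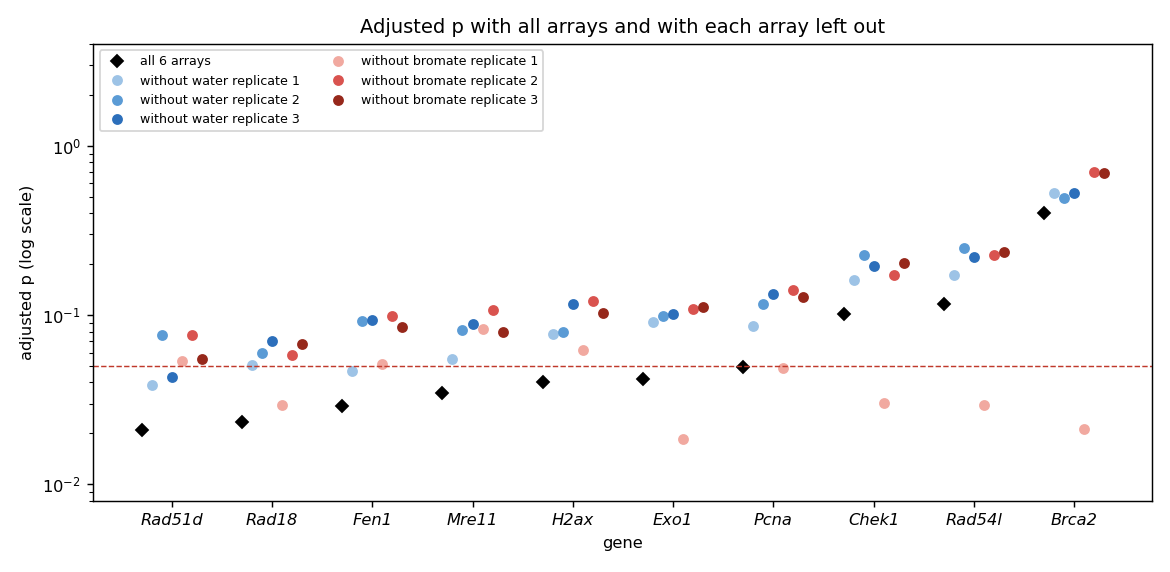
Adjusted p (log scale) of the 7 called repair genes and of Chek1, Rad54l and Brca2, with all 6 arrays (black) and with each array left out. The dashed line is the threshold of 0.05; Exo1, Pcna, Chek1, Rad54l and Brca2 have their lowest adjusted p without bromate replicate 1.

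Repair genes known to be transcribed with DNA replication (Brca2, Chek1, Exo1, Rad54l, Fancd2, Fen1, Pcna and Lig1, the 8 measured of 11 listed) were uneven among the bromate rats. Relative to the water mean, their mean log2 level was -0.05 on bromate replicate 1, 0.68 on replicate 2 and 0.55 on replicate 3, against -0.04 to 0.06 on the water arrays. On bromate replicate 1 the dim gene Fancd2 was at -1.86 and Brca2 at -0.28. Chek1 (0.26), Exo1 (0.55), Rad54l (0.16), Fen1 (0.33), Pcna (0.24) and Lig1 (0.23) were above all water arrays there. Summed linear levels of the 8 were 12.98, 15.2 and 14.3 on bromate replicates 1 to 3, with a highest water value of 11.13. Bromate replicate 1 was the lowest bromate array for all 8, for 9 of the other 28 repair genes and for 32.6% of all genes. In this sub-list 3 rose with all arrays and 5 without bromate replicate 1. By limma 0 rose without water replicate 2 or 3 or bromate replicate 2 or 3, and 1 without water replicate 1.

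Markers of dividing cells were also low on bromate replicate 1, the lowest bromate array for 13 of 14. Of all arrays, bromate replicate 1 also had the lowest share of probes past the scanner's background test (57.9%, others 59.3% to 63.1%). Whether this bears on the dim genes was not tested. Bromate replicate 1 was also the lowest of the bromate arrays for 12 of 13 licensing and nucleotide supply genes, 8 of 9 macrophage, 5 of 6 fibroblast and 5 of 6 lymphocyte markers. It was the lowest for 0 of 6 endothelial, 2 of 10 proximal tubule and 3 of 8 straight tubule markers, and for 4 of 18 p53 targets outside repair. The fibroblast mean, relative to water, was -0.80 on it and 0.29 and 0.30 on the others. The mean of 14 cell division markers, relative to the water mean, was -0.27 on bromate replicate 1 and 1.06 and 0.95 on replicates 2 and 3. Of these 1 rose with all arrays (the spindle gene Tpx2) and 8 without bromate replicate 1, but 0 by limma without any other single array. Their summed linear level was 12.2 to 14.7 on water and 14.6 to 24.8 on bromate. Genes of replication licensing and nucleotide supply were at 0.45 on bromate replicate 1 and 1.07 and 0.93 on the others. Of 13 such genes 6 rose, led by Ccne1 (1.95) and Mcm3 (1.52), and 8 without bromate replicate 1, against 4 without any other single array. Cdt1, counted among the 6, was not well above background on any water array and passed the filter through the bromate arrays. It was at least 2.147-fold higher there, the bromate mean being set against, on each water array, the higher of its own signal and the lowest signal well above background (measured means -5.30 and -3.897, adjusted p = 0.00443 by limma). Their summed level was 9.24 to 10.8 on water and 12.8 to 25.6 on bromate. Among 9 macrophage markers, with summed levels of 18.9 to 22.5 on water and 25.6 to 42.003 on bromate, 2 rose with all arrays, 5 without bromate replicate 1 and 1 without any other single array. Of 6 lymphocyte markers 0 were called by limma, with 0 at an unadjusted p under 0.05 (summed level 1.66 to 1.84 on water and 1.28 to 1.60 on bromate). The part of dividing or immune cells in the repair gene results was not tested.

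**Figure D4:**
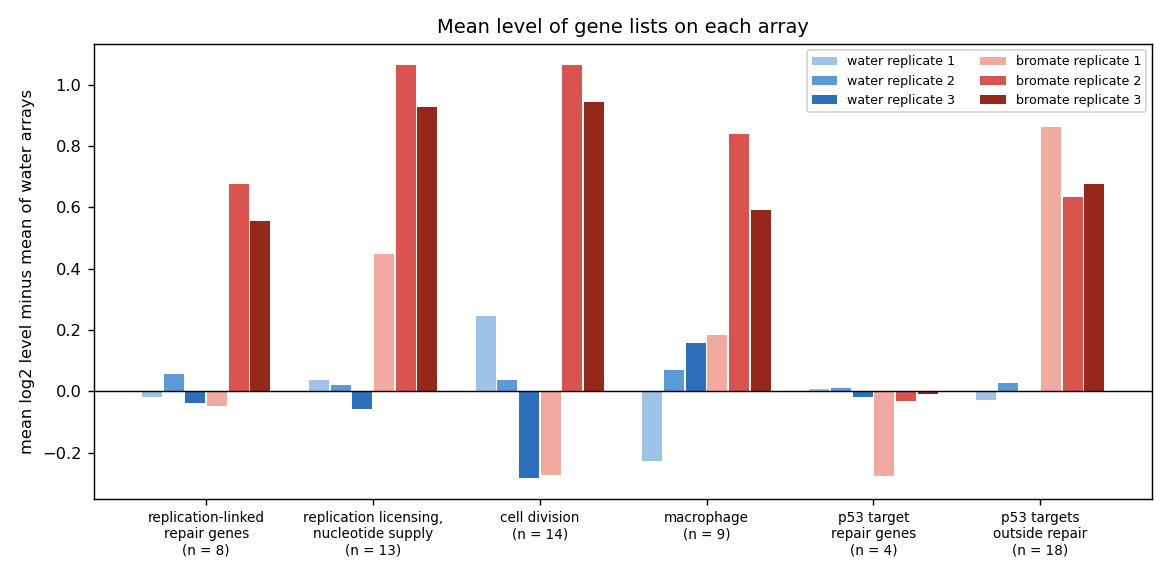
Mean log2 level of 6 gene lists on each array, minus the mean of the water arrays. Replication-linked repair genes and cell division markers are near or below 0 on bromate replicate 1 and above 0.5 on bromate replicates 2 and 3, while p53 targets outside repair are above 0.6 on all bromate arrays. The mean of the replication-linked repair genes on bromate replicate 1 includes the dim gene Fancd2 at -1.86.

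Repair genes listed as p53 targets were set beside other listed p53 targets. Of 18 measured p53 targets outside repair, 11 rose and 0 fell, led by Btg2 (1.98), Gdf15 (1.67) and Fas (1.59). The mean of the 18 was 0.63 to 0.86 above the water mean on the bromate arrays. In this list 14 were higher and 4 lower, the 4 being Cdkn1a (-0.10), Gadd45a (-0.03), Perp (-0.17) and Sesn2 (-0.06). Summed linear levels overlapped, at 107.6 to 114.7 on water and 113.8 to 141.1 on bromate. The count that rose was 10, 4 and 8 without water replicates 1, 2 and 3 and 8, 5 and 6 without bromate replicates 1, 2 and 3. Of the 4 repair genes listed as p53 targets, Pcna rose, and Xpc, Polh and Ddb2 had differences of -0.40, -0.32 and -0.07. The difference between the lists was not tested, nor was control of any of these genes by p53 in the rat.

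Pathway partners outside the set were counted from a list of 78 further repair genes, of which 58 were measured. Of these 4 rose and 2 fell, a share of 10.3% beside 13.9% of all genes, with a median difference of 0.02. Ube2t, which encodes the conjugating enzyme of the Fanconi anaemia pathway, rose by 1.48 ± 0.20 (adjusted p = 0.0107) and passed with each array left out in turn (up to 0.0413). The cell cycle kinase gene Wee1 (0.58 ± 0.10) and the alkyl-damage dioxygenase gene Alkbh3 (0.53 ± 0.10) also rose.

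The 2 partners that fell were Fancc (-0.52 ± 0.09, adjusted p = 0.0183) and Fance (-0.31 ± 0.07, adjusted p = 0.0472), subunits of the Fanconi anaemia core complex. Fancc did not pass without water replicate 2 or 3 or bromate replicate 2 or 3 (adjusted p up to 0.0668), Wee1 without water replicate 2 or 3 or bromate replicate 2 (up to 0.0699), and Fance and Alkbh3 without any 1 array (0.0644 to 0.137 and 0.0562 to 0.087). The counts of partners that rose and fell were 4 and 1, 1 and 0, and 1 and 0 without water replicates 1, 2 and 3. They were 4 and 2, 1 and 0, and 3 and 0 without bromate replicates 1, 2 and 3. None of 5 further end joining, 4 mismatch repair, 9 nucleotide excision and 13 repair synthesis genes was called by limma, with 2, 0, 1 and 5 of them at an unadjusted p under 0.05.

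Several repair genes had more than 1 probe, which gave a further view of the same RNA. Of 20 additional probes that could be tested, in 18 genes, 17 had the sign of the brightest probe and 3 the opposite one. The probes of Pcna (0.37 and 0.39), Lig1, Ercc1 (0.15 and 0.17) and Xpc gave close values. The other probe of Chek2 and of Rad23b gave a larger difference than the brightest one and passed. The opposite signs were in Ercc6, Ercc8 and Polk, of which none passed on any probe.

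**Figure D5:**
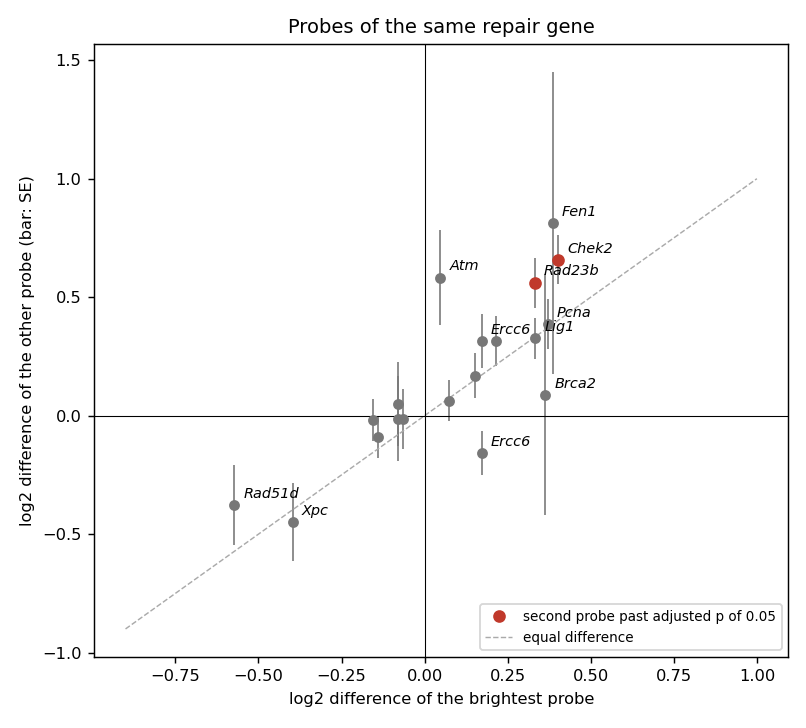
Log2 difference of each additional probe (vertical, bar 1 standard error) against the brightest probe of the same repair gene (horizontal). Most lie along the line of equal difference. Chek2 and Rad23b (red, the probes that passed) lie above it, as do Atm and Fen1, which did not pass, and Brca2 lies below it. The 1 Polk probe with a standard error of 1.204 is left out.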

How the data were processed

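Cortex RNA of 3 water and 3 potassium bromate rats was read on single-colour arrays. The deposited scanner files hold spot intensity after the scanner software's own background treatment (version 10.7 of Feature Extraction by Agilent, per the notes on processing that the submitters gave), and the file headers name build rn4, of which no coordinates were used. The authors' deposited value table holds a ratio: set against the scanner values, each entry equalled signal divided by the 75th percentile of that array, the worst probe being off by 0.241% to 0.415%. Its column medians were 0.1043, 0.1049, 0.1031, 0.1025, 0.1055 and 0.1026, and no label states its scaling.

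Intensities were scaled to each array's 75th percentile and log2-transformed, without control and outlier spots. Of the probes, 28206 had 1 symbol through RefSeq accessions, 0 had several and 33331 had none. The brightest probe stood for a gene, and an unnamed probe for itself, if well above background on at least 3 arrays. One unnamed probe with too few values was left out. Groups were compared with limma 3.58.1 in R 4.3.3 with Benjamini-Hochberg adjustment over all 29338 genes, after the script was tested on simulated data. Each array stands for 1 rat, per the labels, and p-values measure the spread between these rats.

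Every repair gene is named by pathway. Values on each array are given for genes that passed, for those at least 1.5-fold apart with no overlap and, in a group with neither, for the largest difference. Of other repair genes those that passed are named, up to 10, and of each marker list up to 3; 1 gene counted among the other repair genes is not reported here. Genes and lists were chosen with earlier results of these data known.

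Alternatives covered scaling, background correction, the detection filter, probe choice, outlier spots, the variance model, slide, replicate block and each array left out. Normexp used median spot and background signals, in place of the mean signal, which the files used here do not hold. Upstream windows came from the RefSeq table.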

Additional observations from a re-analysis of the deposited data

How the results depend on the processing

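Against 6 that rose and 1 that fell, 0 rose and 0 fell by limma with no detection filter, where 48975 genes were tested and 15 repair genes had an unadjusted p under 0.05. With the mean of a gene's probes 6 rose and 0 fell, and with slide as a block 1 rose and 1 fell. Leaving out 1 array gave 0 to 6 that rose and 0 to 1 that fell. The cause of these differences was not tested. Rad18 and Exo1 were among those called without bromate replicate 1. The other 8 settings gave 6 to 8 that rose and 1 that fell, and no named repair gene with a call reversed. The median difference of the repair genes ranged from 0.0722 to 0.157 on leaving out 1 array. Genes that rose and fell over the whole array numbered 1933 and 2154, 737 and 677 without the filter, and 590 to 1548 and 515 to 1883 on leaving out 1 array. Dim probes such as those of Chek1 and Fancd2 were near the limit of detection.

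The replicate numbers are not stated to pair the rats. Deviations of same-numbered arrays from their group means correlated at 0.0539, 0.0737 and -0.0888, and those of different-numbered arrays at -0.116 to 0.0811. With so few arrays these values cannot decide whether the numbers pair rats. With the replicate block 2 repair genes rose (Rad18 and Exo1) and 0 fell, and over all genes 579 rose and 512 fell.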

Other observations

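A Polk probe other than the brightest was high on replicate 1 of both groups. Its levels were -1.12, -4.67 and -4.25 on water and -1.42, -4.36 and -4.19 on bromate. Another Polk probe, above background on 1 array, was at -2.001 on bromate replicate 1 and at -6.89 to -5.65 on the other 5 arrays.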
